A study of Mus musculus with 18 samples.

Results

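The RNA level of 6 cholesterol synthesis genes, Hmgcs1, Mvd, Idi1, Sqle, Lss and Dhcr7, was followed in liver, epididymal white adipose tissue (eWAT) and quadriceps muscle of mice on a high-salt diet. They were taken by name from the 21899 genes listed, and all 6 were found. None of the 6 takes up LDL, so lipoprotein uptake was described only from a list of other genes. The HSD group had received a high-salt diet with saline to drink for 12 weeks and the CON group chow and tap water. All were male C57BL/6 mice aged 18 weeks, and no genetic change is named for them. Total RNA depleted of ribosomal RNA was sequenced in 3 libraries per tissue and diet, 18 in all. Codes such as CON16 and HS2 recur across tissues, so the tissues may share mice. Values are FPKM, fragments scaled to the length of a gene's exons and to the library's total.

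Cholesterol is built from acetyl-CoA in a chain of enzyme steps. Hmgcs1 condenses acetyl groups into HMG-CoA, Mvd makes isopentenyl diphosphate, and Idi1 converts it to its isomer, the unit from which longer isoprenoids are built. Sqle then oxidizes squalene, Lss closes it into the first sterol, lanosterol, and Dhcr7 carries out a late reduction that yields cholesterol. Cells that are short of sterol release the transcription factor SREBP-2 from the endoplasmic reticulum, and it raises the transcription of these enzymes. The liver is known as a main site of this synthesis.

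In the mm10 build the genes lie on 5 chromosomes. Hmgcs1 (ENSMUSG00000093930) covers chr13:119690379-119708260 and Idi1 (ENSMUSG00000058258) covers chr13:8885501-8892451, both on the plus strand. Sqle (ENSMUSG00000022351) covers chr15:59315077-59331192, Lss (ENSMUSG00000033105) chr10:76531588-76557138 and Dhcr7 (ENSMUSG00000058454) chr7:143823145-143848410, again on the plus strand. Mvd (ENSMUSG00000006517) covers chr8:122433601-122443422 on the minus strand. All 6 are annotated as protein coding. The values count fragments over all exons of a gene, UTRs included. The exons together span from 1859 bases for Mvd to 10787 bases for Lss.

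RefSeq promoter windows were held for 5 of the 6 genes, Sqle being the exception. The 250 bases before the annotated start are shown for Hmgcs1, because it alone of the 5 held the sterol regulatory element TCACNCCAC, to which SREBP-2 can bind, and for Mvd, whose log2 level differed most between diets in liver. Letters run 5′ to 3′ along the gene's strand (GRCm38.p6). Capitals mark TCACNCCAC and the CCAAT box, each searched on both strands, so that ATTGG is a CCAAT box on the other strand. No marked match overlaps another.
Hmgcs1, chr13:119690101-119690350, plus strand: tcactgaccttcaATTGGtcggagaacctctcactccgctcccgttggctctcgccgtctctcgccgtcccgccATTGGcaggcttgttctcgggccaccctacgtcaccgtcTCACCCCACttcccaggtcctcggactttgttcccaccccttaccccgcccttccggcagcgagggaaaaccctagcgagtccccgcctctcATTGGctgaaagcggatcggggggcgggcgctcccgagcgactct
Mvd, chr8:122443423-122443672, minus strand: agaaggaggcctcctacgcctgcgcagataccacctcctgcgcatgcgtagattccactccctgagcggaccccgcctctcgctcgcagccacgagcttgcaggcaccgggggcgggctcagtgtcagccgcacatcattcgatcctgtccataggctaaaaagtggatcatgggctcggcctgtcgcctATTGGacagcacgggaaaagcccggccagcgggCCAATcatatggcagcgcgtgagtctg
The sterol element began 137 bases before the start of Hmgcs1 and was present in 1.05% of all 32851 windows of this length. CCAAT occurred 3 times in the Hmgcs1 window and 2 times in the Mvd window. It was present in at least 1 window of Lss, Idi1 and Dhcr7 (which has 3 windows) as well, against 37.5% of all genes with it in any window. These matches describe letters in a window and were not tested for binding.

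Facts about 2 libraries touch the results. The liver library CON16L held skeletal muscle transcripts (6 markers, such as Acta1 and Ckm) that summed to 4120 FPKM, against 1.89 to 5.30 in the other 5 liver libraries, where at most 1 of the 6 was at 0. The eWAT library HS3W held transcripts of the epididymal epithelium (9 markers, such as Crisp1 and Lcn8) that summed to 18003 FPKM, with none at 0, against 1.05 to 13.4 in the other 5, where 2 to 7 of the 9 were at 0. Its 6 adipocyte markers summed to 2503 FPKM, against 6717 to 7353. Results in liver and eWAT are therefore also given without that library. Hepatocyte markers reached 14365 to 69456 FPKM in liver and skeletal muscle markers 47675 to 60327 FPKM in muscle, as the tissue labels state. Library totals ran from 7628071 to 16637489 fragments, and mitochondrially encoded genes took 60.8% (CON14L), 37.8% and 25.7% of the CON liver libraries and 16.3%, 15.4% and 44.4% (HS5L) of the HSD liver libraries. CON14L also had the lowest hepatocyte sum.

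In CON mice, the order of the tissues differed among the genes. Hmgcs1 averaged 71.0 ± 30.4 FPKM in liver (mean ± SD, n = 3 in each group here and below), 38.8 ± 6.78 in eWAT and 6.69 ± 0.861 in muscle. It ranked 384th of 21899 genes in liver and was the highest of the 6 in every tissue. Dhcr7 followed the same order, with 6.998 ± 1.03, 3.34 ± 0.778 and 1.46 ± 0.0940 FPKM.

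Mvd averaged 9.20 ± 0.427 FPKM in liver, 6.84 ± 0.348 in eWAT and 3.74 ± 0.524 in muscle. Lss reached 3.30 ± 0.617 and 2.93 ± 0.270 FPKM in liver and eWAT but 0.554 ± 0.0609 in muscle. Sqle was similar, with 3.08 ± 0.533, 3.96 ± 0.339 and 0.647 ± 0.0655 FPKM. Idi1 had another order, with its highest level in eWAT (5.07 ± 0.390 FPKM), then muscle (1.601 ± 0.204) and its lowest in liver (0.913 ± 0.281).

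Tissues were compared by limma over the 9 CON libraries, and a call needed an adjusted p (Benjamini-Hochberg) under 0.05 together with a log2 difference of 1 or more in either direction. Differences are on the log2(FPKM + 0.5) scale. Liver exceeded muscle with a call for 5 of the 6, by 1.20 (Mvd) to 3.21 (Hmgcs1), where 50.1% of 12637 genes were called between these tissues. eWAT exceeded muscle with a call for Hmgcs1, Sqle, Lss and Idi1, by 1.41 to 2.44, against 54.9% of genes called. Between liver and eWAT, Idi1 alone was called, being lower in liver (log2 difference -1.996, SE 0.16, limma adjusted p = 3.07e-06), against 69.4% of genes. Hmgcs1 (0.77, adjusted p = 0.0548), Sqle (-0.32, 0.0537) and Lss (0.14, 0.387) did not pass there. Dhcr7 (0.98) and Mvd (0.40) had an adjusted p under 0.05 without reaching a log2 difference of 1, and single libraries decided the call of Dhcr7, which was 1.11 without CON71W, and of Hmgcs1, which was 1.18 without CON14L.

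The comparison of liver with eWAT turned on the scaling of the libraries. Under median-ratio scaling Hmgcs1 (2.41), Sqle (1.12), Lss (1.55), Dhcr7 (2.44) and Mvd (1.95) were all called higher in liver, Sqle with the opposite sign, and Idi1 was no longer called (-0.67). Of the differences of eWAT from muscle, Lss (0.91) and Idi1 (0.52) were then not called, and that of Mvd changed from 0.80 to -0.13. When the mitochondrially encoded genes did not count toward the total, Hmgcs1 (1.53), Dhcr7 (1.70) and Mvd (1.14) were called higher in liver than in eWAT, and Sqle gave 0.35. Without CON16L no call of the 6 genes in the tissue comparison changed.

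**Figure D1:**
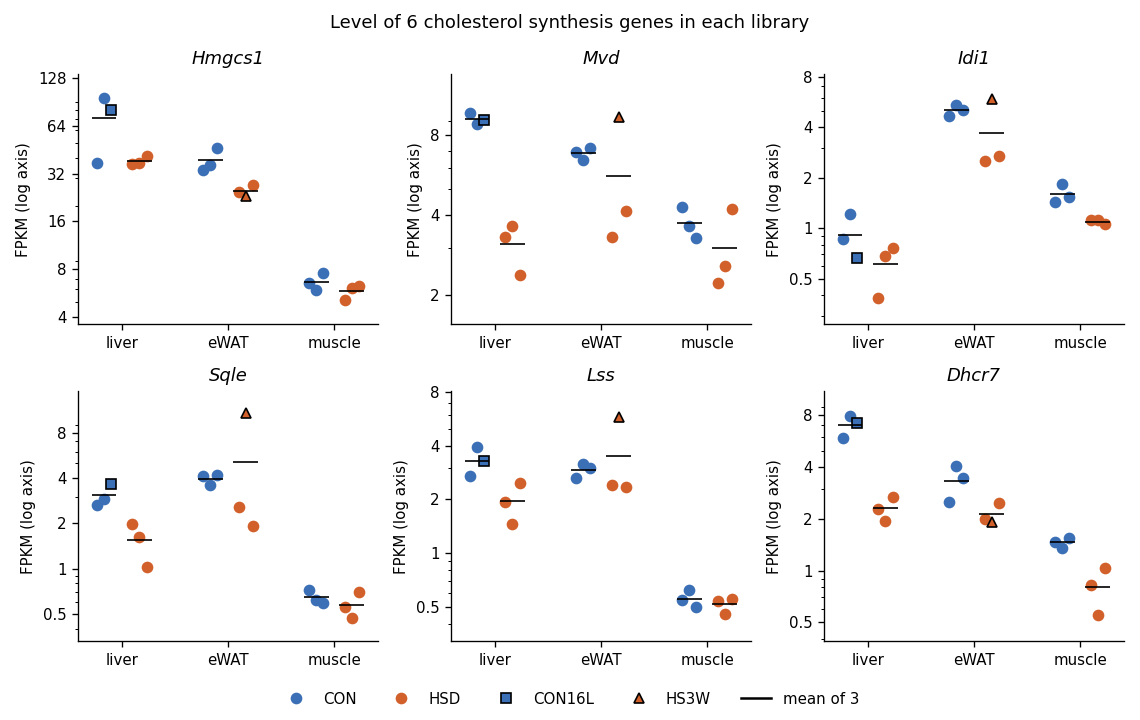
FPKM (log axis) of the 6 genes in each of the 18 libraries, by tissue and diet, with horizontal lines at the mean of 3. The HSD libraries of liver lie below every CON library for Mvd, Sqle, Lss and Dhcr7, and the eWAT library HS3W (triangle) lies above every CON library for Mvd, Idi1, Sqle and Lss.

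In liver, all 6 genes were lower in HSD than in CON mice on average, against 37.3% of all genes, and for Mvd, Sqle, Lss and Dhcr7 the groups did not overlap. The means of Dhcr7 and Mvd were 67.0% and 66.2% lower, the largest differences among the 6. None was called by limma, and no gene of the 10317 tested was (0%). Unadjusted p-values under 0.05 with a lower level were found for 4 of the 6, against 1.96% of all genes. The 6 were chosen with earlier results of these data known, and the paper lists Dhcr7 and Mvd among its key changed liver genes. Shares and ranks set beside the 6, here and below, are therefore descriptions and not a test.

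The last step, Dhcr7, read 5.88, 7.20 and 7.91 FPKM in CON liver and 1.95, 2.29 and 2.67 in HSD liver. The lowest CON library was thus above the highest HSD library. Its log2 fold change was -1.42 (SE 0.22, limma adjusted p = 0.550), and its unadjusted p ranked 4th of 10317.

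Mvd read 8.82, 9.11 and 9.66 FPKM in CON liver and 2.39, 3.30 and 3.63 in HSD liver. The groups were again apart, each value resting on 38 to 197 fragments. The log2 fold change of Mvd was -1.44 (SE 0.23, limma adjusted p = 0.550), and its unadjusted p ranked 6th.

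Among the squalene steps, Sqle read 2.65, 2.92 and 3.68 FPKM in CON and 1.03, 1.63 and 1.99 in HSD liver. Its log2 fold change was -0.82 (SE 0.25, limma adjusted p = 0.764). Lss read 2.70, 3.28 and 3.93 FPKM in CON and 1.46, 1.93 and 2.46 in HSD liver, a log2 fold change of -0.64 (SE 0.24, limma adjusted p = 0.764). Neither gene's groups overlapped. With these 2 the genes without overlap numbered 4 of 6, where 3.47% of all genes were lower without overlap.

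Hmgcs1 and Idi1 overlapped. Hmgcs1 read 37.2, 80.2 and 95.8 FPKM in CON and 36.5, 37.3 and 41.0 in HSD liver, so that the library CON14L lay at the level of the HSD libraries. Mitochondrially encoded genes took 60.8% of the CON14L total, by which its FPKM are scaled. The log2 fold change of Hmgcs1 was -0.78 (SE 0.43, limma adjusted p = 0.764). Idi1 read 0.662, 0.860 and 1.22 FPKM in CON and 0.383, 0.687 and 0.768 in HSD liver, a log2 fold change of -0.34 (SE 0.27, limma adjusted p = 0.764). It was -0.19 without HS2L or without CON72L and -0.65 when the mitochondrially encoded genes did not count toward the total. The values rest on 14 to 39 fragments. The exact Poisson 95% interval was 0.210 to 0.643 FPKM for the lowest HSD library and 0.865 to 1.66 for the highest CON library, which covers counting error only.

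**Figure D2:**
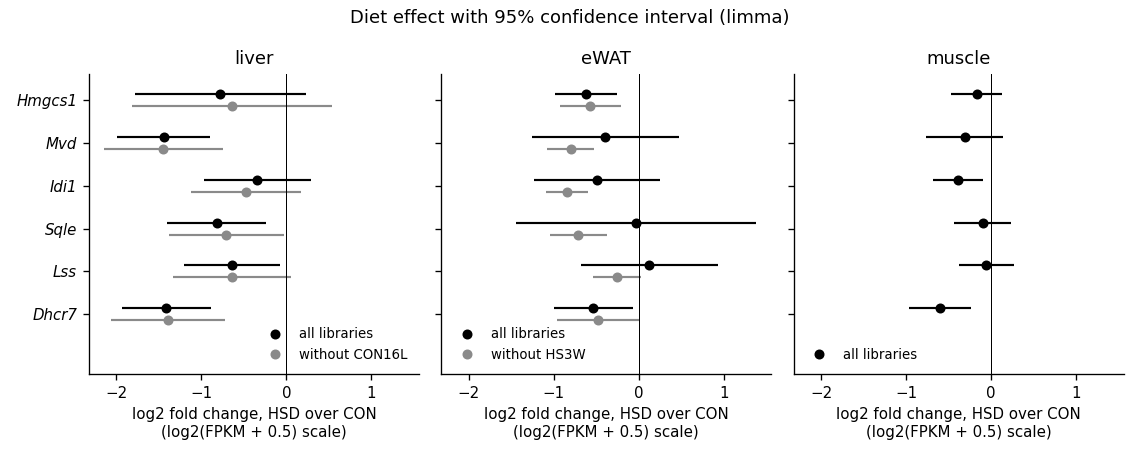
Log2 fold change (HSD over CON, log2(FPKM + 0.5) scale) with the 95% confidence interval of limma for the 6 genes in liver, eWAT and muscle, over all libraries (black) and without CON16L or HS3W (grey). In liver the estimates of Mvd (-1.44) and Dhcr7 (-1.42) lie farthest below 0, and in eWAT the intervals of Sqle, Lss, Mvd and Idi1 are narrower and lower without HS3W.

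Without CON16L, all 6 liver estimates were below 0 (34.3% of all genes), with -1.39 for Dhcr7 and -1.45 for Mvd, and 5 of 6 did not overlap, against 5.9% of 10018 genes. Over the liver libraries in the study's own list of read numbers, which lacks CON16L and HS5L, Dhcr7 gave -1.48 (limma adjusted p = 0.0574) and Mvd -1.30 (adjusted p = 0.0587). There 35 of 9970 genes (0.351%) were called. Sqle gave -0.51 there. That fit sets CON14L and CON72L against HS2L and HS4L. Mitochondrially encoded genes took 60.8% and 37.8% of these CON totals and 16.3% and 15.4% of these HSD totals. Diet and this share therefore cannot be told apart in it. Of all its genes, 19.3% were lower without overlap and 45.3% higher. Hmgcs1 ran from -1.19 without CON14L to -0.51 without CON72L.

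The median log2 fold change of all liver genes was 0.13, and it was -0.20 once mitochondrially encoded genes were left out of the total. That scaling also moved Lss from -0.64 to -1.002. The 6 genes lay below either median, with a median of their own of -0.80 in the first case. Macrophage markers (6 genes) also summed lower in HSD liver, 8.62 to 16.1 against 19.5 to 31.9 FPKM, and blood cell markers (5 genes) 237 to 664 against 471 to 5626 FPKM, while hepatocyte markers (8 genes) overlapped, 29553 to 69244 against 14365 to 69456 FPKM. The part of these sums and of the mitochondrial share in the results was not tested. In bulk tissue, fewer cells of a type and less RNA per cell cannot be told apart.

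In eWAT, the 6 genes divided by their level in 1 library. The HSD libraries HS2W and HS5W were below every CON library for all 6 genes. HS3W was above every CON library for Mvd, Idi1, Sqle and Lss, and below every other eWAT library for Hmgcs1 and Dhcr7. None of the 6 was called over all libraries, and 0 of 13740 genes was (0%), by limma or by voom. At an unadjusted p under 0.05, 2 of the 6 were lower, against 7.55% of all genes, and 5 of the 6 log2 fold changes were below 0, against 40.9%.

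The first step, Hmgcs1, read 33.7, 36.1 and 46.5 FPKM in CON and 23.1, 24.4 and 27.1 in HSD eWAT. Its log2 fold change was -0.62 (SE 0.15, limma adjusted p = 0.159). Dhcr7 read 2.51, 3.47 and 4.05 FPKM in CON and 1.93, 1.99 and 2.47 in HSD eWAT, with -0.53 (SE 0.19, limma adjusted p = 0.261). These were the 2 of 6 genes whose groups did not overlap, where 12.4% of all genes were lower without overlap.

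Sqle showed the widest spread. Its CON libraries read 3.57, 4.13 and 4.18 FPKM, and the HSD libraries read 1.93 in HS5W, 2.55 in HS2W and 10.8 in HS3W. With all libraries its log2 fold change was -0.03 (SE 0.58, limma adjusted p = 0.981). Lss read 2.62, 3.01 and 3.14 FPKM in CON eWAT and 2.35, 2.40 and 5.80 in HSD eWAT, the highest again in HS3W, with 0.13 (SE 0.33, limma adjusted p = 0.843).

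The isoprenoid enzymes had the same shape with a smaller excess. Mvd read 6.46, 6.91 and 7.15 FPKM in CON and 3.31, 4.15 and 9.36 in HSD eWAT, with a log2 fold change of -0.39 (SE 0.35, limma adjusted p = 0.556). Idi1 read 4.68, 5.08 and 5.46 FPKM in CON and 2.51, 2.70 and 5.89 in HSD eWAT, with -0.49 (SE 0.30, limma adjusted p = 0.436).

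Without HS3W, all 6 genes were lower in HSD eWAT, against 43.8% of 13245 genes. None overlapped, where 20.5% of all genes were lower without overlap. Idi1 (-0.84, SE 0.10, limma adjusted p = 0.0227), Mvd (-0.80, SE 0.11, 0.0249) and Sqle (-0.71, SE 0.14, 0.0417) then had an adjusted p under 0.05. Of all genes tested, 3.76% had such a p and were lower. None reached an absolute log2 fold change of 1, which 160 genes (1.21%) did together with the p-value. Hmgcs1 (-0.57, adjusted p = 0.0718), Dhcr7 (-0.48, 0.187) and Lss (-0.25, 0.222) did not pass. Only 2 HSD libraries remain in this fit. Leaving out HS2W in place of HS3W moved Mvd to -0.11 and Idi1 to -0.30.

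Macrophage markers summed to 152 to 343 FPKM in HSD and 373 to 573 in CON eWAT. Male germ cell markers (6 genes) summed to 33.0 to 531 FPKM in HSD and 0.189 to 40.7 in CON eWAT, and skeletal muscle markers to 26.9 to 45.0 against 7.56 to 15.96. Hepatocyte markers summed to 669 to 2576 FPKM in HSD and 1088 to 1603 in CON eWAT, and blood cell markers to 318 to 548 against 243 to 5667. The hepatocyte sum hides opposite directions. Of its 8 markers, 7 were lower and 1 higher in HSD eWAT, with a median log2 fold change of -3.04 and 0 called. Without HS3W, again 7 were lower and 1 higher (median -2.86), and all 8 were called, against 1.21% of all genes. The part of these marker groups in the levels of the 6 genes was not tested.

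In muscle, all 6 genes again had a lower mean in HSD mice, against 60.8% of all genes with a log2 fold change below 0, and the groups did not overlap for Dhcr7 and Idi1. None of the 6 was called, against 35 of 10834 genes (0.323%, or 54 genes with the replicate block). Dhcr7 and Idi1 had an unadjusted p under 0.05, where 12% of all genes tested had such a p and were lower. The 6 had a median log2 fold change of -0.24, and all genes one of -0.06.

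Dhcr7 read 1.36, 1.47 and 1.55 FPKM in CON and 0.556, 0.827 and 1.04 in HSD muscle. Its mean was 44.7% lower, with a log2 fold change of -0.60 (SE 0.16, limma adjusted p = 0.119). Idi1 read 1.44, 1.53 and 1.83 FPKM in CON and 1.06, 1.11 and 1.12 in HSD muscle, with -0.39 (SE 0.13, limma adjusted p = 0.191). The HSD values of Idi1 were thus within 0.1 FPKM of each other, on 46 to 76 fragments over the 6 libraries. With these 2, 2 of 6 genes had groups that did not overlap, where 15.6% of all genes were lower without overlap.

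The other 4 overlapped. Mvd read 3.27, 3.63 and 4.30 FPKM in CON and 2.22, 2.57 and 4.21 in HSD muscle, with HS5M at the CON level and a log2 fold change of -0.31 (SE 0.20, limma adjusted p = 0.471). Single libraries moved it to -0.54 (without HS5M) and -0.15 (without HS2M). Hmgcs1 read 5.90, 6.57 and 7.61 FPKM in CON and 5.17, 6.15 and 6.33 in HSD muscle, with -0.17 (SE 0.13, limma adjusted p = 0.564). Sqle ran from 0.472 to 0.721 FPKM and Lss from 0.457 to 0.618 over the 6 muscle libraries, on 34 to 79 fragments, and their log2 fold changes were -0.10 and -0.05. Their 95% intervals ran from -0.44 to 0.24 and from -0.38 to 0.27. Macrophage markers summed to 30.7 to 34.8 FPKM in HSD and 37.8 to 67.1 in CON muscle, and blood cell markers to 127 to 174 against 124 to 965. Epididymal markers stayed at or under 1.58 FPKM in muscle and 1.29 in liver, and male germ cell markers at or under 5.01 and 0.467. Adipocyte markers summed to 44.1 to 116 FPKM in muscle and 3.67 to 17.5 in liver.

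Across tissues, Dhcr7 was the 1 member of the 6 whose groups did not overlap in any of the 3 tissues. Its gap was narrow among the eWAT libraries. HS5W read 2.47 FPKM (exact Poisson 95% interval 2.13 to 2.85) and CON16W 2.51 FPKM (2.20 to 2.85), so these intervals overlapped. The tissues may share mice, so they may not be independent. The share of all genes without overlap in all 3 was not determined. HSD means of Dhcr7 were 67.0% lower in liver, 36.3% lower in eWAT and 44.7% lower in muscle. Whether a diet effect differed between tissues was tested in 1 limma model of all 18 libraries, with a call at an adjusted p under 0.05. None of the 18 differences of the 6 genes was called. Between liver and eWAT 0.788% of 13067 genes were called, between liver and muscle 0.0612%, and between eWAT and muscle 0%. Among the 18, 5 had an unadjusted p under 0.05 and involved liver. The share of all genes at that p was not determined, so this count has nothing to be set against. Dhcr7 differed by -0.88 (liver minus eWAT, SE 0.25, limma adjusted p = 0.146) and by -0.81 (liver minus muscle, SE 0.25, adjusted p = 0.371). Mvd differed by -1.05 (SE 0.40, limma adjusted p = 0.264) and -1.13 (SE 0.40, 0.470), and Lss by -0.77 (liver minus eWAT, SE 0.35, 0.352). Without CON16L and HS3W, Mvd gave -1.14 for liver minus muscle (SE 0.29, limma adjusted p = 0.0825) and -0.65 for liver minus eWAT (SE 0.31, 0.226), while Lss gave -0.39 (liver minus eWAT, SE 0.25, 0.349). Dhcr7 then gave -0.91 for liver minus eWAT (SE 0.29, limma adjusted p = 0.103) and -0.79 for liver minus muscle (SE 0.27, 0.153). Without HS5L, the liver minus eWAT difference of Dhcr7 was -0.98 and passed the threshold (SE 0.26, limma adjusted p = 0.0487).

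Within a tissue, the 6 genes were correlated over 6 libraries, which share depth and diet. In liver all 15 pairs were above 0 (Pearson r on log2(FPKM + 0.5) from 0.22 to 0.93, median 0.66). In eWAT 11 of 15 were above 0 (-0.26 to 0.96, median 0.41). Within the 2 sets seen in HS3W, r was 0.95 for Sqle and Lss, 0.96 for Mvd and Idi1, and 0.85 for Hmgcs1 and Dhcr7. The lowest pair within a set was Lss and Idi1 (0.71). Across the sets, r ran from -0.26 for Hmgcs1 and Lss to 0.41 for Hmgcs1 and Idi1. The sets were read from the same values, so this is not a further observation. Without HS3W all 15 eWAT pairs were above 0 (0.55 to 0.96, median 0.85, 5 libraries), Hmgcs1 and Lss at 0.85. Without CON16L all 15 liver pairs were above 0 (median 0.76). In muscle 14 of 15 were above 0 (median 0.52). These are descriptions without a test.

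The other 14 genes of the cholesterol synthesis pathway were less uniform in liver. The 6 and this list were chosen with earlier results of these data known, so their contrast is a description and not a test. Of the 13 tested in liver, 7 were lower in HSD mice, against 37.3% of all genes, and 6 higher. An unadjusted p under 0.05 was found for 3, all lower, against 1.96% of all genes, with none called. Their median log2 fold change was -0.04, against -0.80 for the 6 and 0.13 for all genes. Without CON16L, 6 were lower and 7 higher, with a median of 0.09, against -0.67 for the 6 and 0.20 for all genes. The smallest p-values belonged to Nsdhl (-1.10, SE 0.30, limma adjusted p = 0.764), a sterol decarboxylase, Msmo1 (-0.89), a methyl sterol oxidase, and Mvk (-0.81), mevalonate kinase. Nsdhl read 12.6, 18.1 and 20.6 FPKM in CON and 6.36, 7.33 and 9.29 in HSD liver.

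In eWAT, 9 of 13 were lower, against 40.9% of all genes, and 4 of these had an unadjusted p under 0.05, against 7.55%. They included Mvk (-0.81, SE 0.11, limma adjusted p = 0.098) and Pmvk (-0.66, 0.149), the phosphomevalonate kinase. Mvk read 11.3, 12.6 and 13.0 FPKM in CON and 6.16, 6.90 and 7.43 in HSD eWAT, without overlap. HS3W was close to the other HSD libraries for both genes, as it was for Hmgcs1 and Dhcr7. For Nsdhl it read 28.6 FPKM, against 7.04 and 7.63 in the other HSD and 14.4 to 17.5 in the CON libraries, and for Msmo1 11.3 against 3.10 and 3.69. Without HS3W, 11 of 13 were lower, against 43.8% of all genes, and 8 of these had an unadjusted p under 0.05, against 12.5%. The 2 called lower, against 0.989% of all genes, included Nsdhl (-1.05, limma adjusted p = 0.021). In muscle, 11 of 13 were lower, against 60.8% of all genes, and 4 of them had an unadjusted p under 0.05, against 12%, none called. They included Cyp51 (-0.51), which removes a methyl group from lanosterol, and Ebp (-0.49), a sterol isomerase. Fdft1, squalene synthase, was the 1 gene with such a p that was higher (0.27), and was named after its value was seen.

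**Figure D3:**
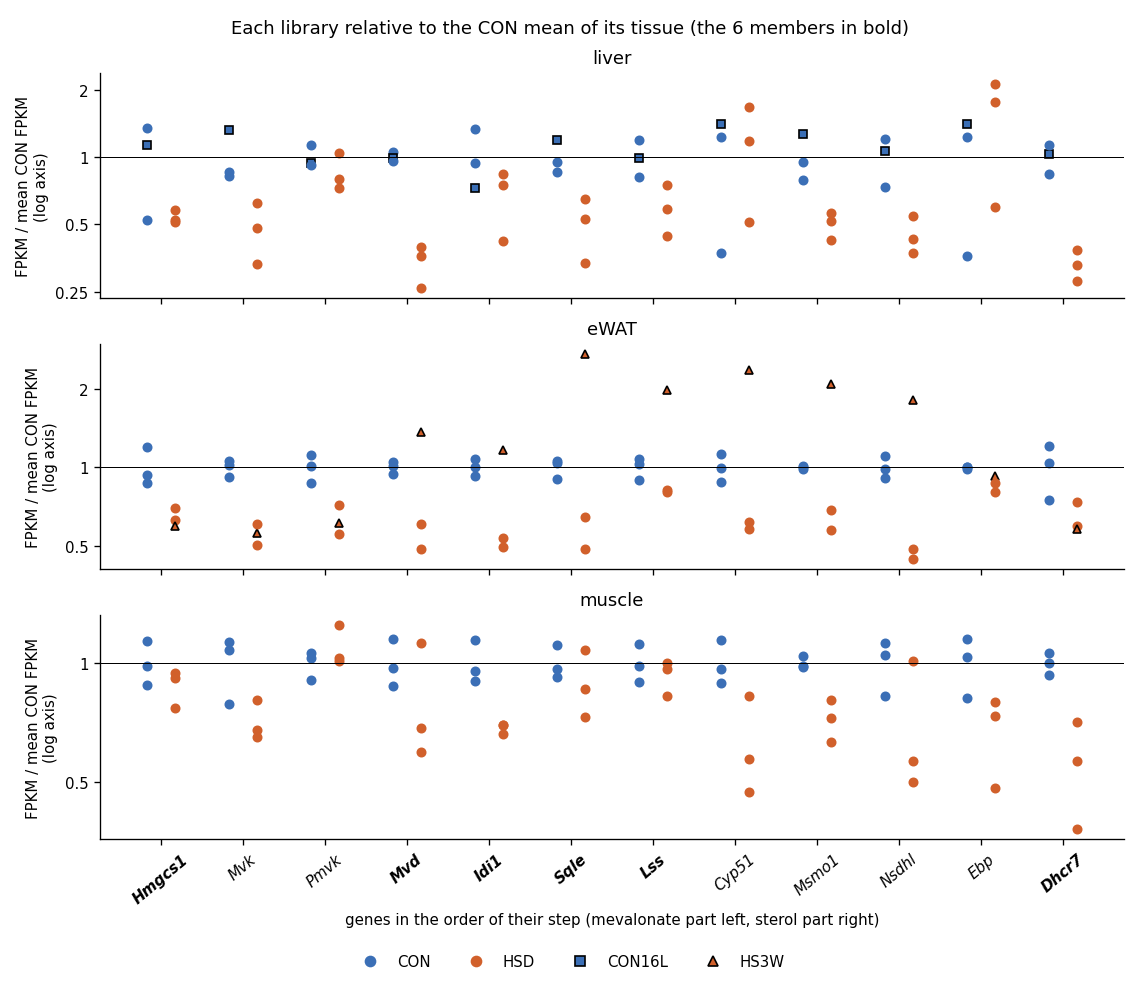
FPKM of each library divided by the mean CON FPKM of its tissue (log axis) for the 6 genes (bold) and 6 other pathway genes, in the order of their steps. In eWAT the library HS3W (triangle) lies above 1 from Mvd to Nsdhl and below 1 for Hmgcs1, Mvk, Pmvk, Ebp and Dhcr7, and in liver every HSD library lies below 1 for Mvd, Sqle, Lss and Dhcr7.

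Acetyl-CoA supply (4 genes) came closest to the 6 in liver and was lower still in eWAT. In liver 3 of the 4 had an unadjusted p under 0.05, all lower, against 1.96% of all genes, with a median log2 fold change of -0.81. They were Aacs (-2.32, SE 0.57, limma adjusted p = 0.764), which activates acetoacetate, Acss2 (-0.71), which activates acetate, and Acly (-0.91), which cleaves citrate. In eWAT all 4 were lower, against 40.9% of all genes, with a median of -1.28 and Acly at -1.31. Acss2 (-1.35) and the citrate carrier Slc25a1 (-1.25) had an unadjusted p under 0.05, against 7.55%. In muscle all 4 were lower, against 60.8% of all genes, with a median of -0.39, led by Acss2 (-0.42), Acly (-0.51) and Aacs (-0.32). None was called in any tissue over all libraries. Without HS3W, 2 of the 4 were called lower in eWAT, Acly (-1.92, limma adjusted p = 0.031) and Acss2 (-1.24, 0.034), against 0.989% of all genes. Over the study's listed liver libraries, CON14L and CON72L against HS2L and HS4L, Aacs was called (-3.26, SE 0.34, limma adjusted p = 0.013). Diet and mitochondrial share cannot be told apart in that fit, and without CON16L Aacs was not called (-2.91, limma adjusted p = 0.244).

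Of the 7 genes of SREBP processing, 6 were tested in liver, and none had an unadjusted p under 0.05. Insig1, which holds SREBP in the endoplasmic reticulum and is itself an SREBP target, gave -0.51, Insig2 0.64 and Mbtps1, a protease that cleaves SREBP, 0.26. In eWAT 2 of 7 had an unadjusted p under 0.05, each lower, against 7.55% of all genes. They were Insig1 (-0.75, SE 0.12, limma adjusted p = 0.114) and Insig2 (-0.43), while Scap, which escorts SREBP, gave 0.50. Insig1 averaged 60.8 ± 7.50 FPKM in CON and 35.9 ± 1.85 in HSD eWAT. In muscle none of 7 did, and the leading values were -0.14 for Srebf2, the gene of SREBP-2, -0.13 for Insig1 and 0.11 for Mbtps2. None was called in any tissue, nor without CON16L in liver or HS3W in eWAT, where Insig1 gave -0.76 (limma adjusted p = 0.030).

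Lipoprotein uptake and lysosomal release of sterol (11 genes) did not share the direction of the 6 in liver, and neither did most genes tested. There 2 of 10 tested were lower, against 37.3% of all genes, and 8 were higher. The median was 0.28, against 0.13 for all genes. Scarb1, the HDL receptor, gave 1.04 (SE 0.33, limma adjusted p = 0.764), with 4.18 ± 1.54 FPKM in CON and 8.95 ± 2.39 in HSD liver, and Npc1, which moves sterol out of lysosomes, gave 0.42. In eWAT 5 of 9 were lower, against 40.9% of all genes, with Lrp1, a lipoprotein receptor, at -0.53 and Lipa, the lysosomal lipase, at -0.39. In muscle 7 of 9 were lower, against 60.8% of all genes, with Npc1 at 0.56 and Stard4, a sterol carrier, at -0.30. None was called in any tissue. Without CON16L, 3 of 10 were lower in liver, against 34.3% of all genes. Without HS3W, Npc2 (-0.35, limma adjusted p = 0.048), which binds sterol in lysosomes, and Mylip (0.47, 0.049) had an adjusted p under 0.05 in eWAT without reaching a log2 fold change of 1 in either direction. Both were named after their values were seen.

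Sterol efflux and esterification (8 genes) had 6 members tested in liver, 5 in eWAT and 3 in muscle, with no call. The leading values in liver were 0.46 for Abcg8, a sterol exporter, and 0.35 and 0.16 for Nr1h3 and Nr1h2, the liver X receptors. In eWAT they were -0.37 for Nr1h3, 0.29 for Soat1, which esterifies cholesterol, and 0.05 for Nr1h2. In muscle the exporter Abca1 gave 0.43 (SE 0.17, limma adjusted p = 0.273), Nr1h2 0.08 and Nr1h3 -0.04. No call appeared without CON16L or HS3W either, and the medians were then -0.05 in liver and 0.07 in eWAT.

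The isoprenoid branch (9 genes), which draws on the same precursors as cholesterol, had no call either. The median log2 fold change was 0.06 in the liver list, 0.01 in eWAT and -0.08 for muscle, and without CON16L and HS3W they were 0.18 in liver and 0.00 in eWAT, again with no call. The leading values were 0.71 for Nus1, -0.36 for Coq2 and 0.11 for Pdss2 in liver. In eWAT they were 0.27 for Ggps1, 0.24 for Pggt1b and -0.09 for Coq2, and in muscle 0.22 for Nus1, -0.29 for Pdss1 and -0.19 for Pdss2. Ggps1, which makes geranylgeranyl diphosphate, was the 1 gene of the branch with an unadjusted p under 0.05, in eWAT.

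The genes most like the mean of the 6 were found by Pearson r on log2(FPKM + 0.5). Over all 18 libraries, after each tissue's mean was subtracted, they were Slc1a4 (0.90), Nsdhl (0.89), Msmo1 (0.89), Ssbp4 (0.83) and Elovl6 (0.82). Of these Nsdhl and Msmo1 are steps of the same pathway and Elovl6 elongates fatty acids. Slc1a4, an amino acid transporter, averaged 1.18 ± 0.343 FPKM in CON and 0.527 ± 0.105 in HSD liver. Over the 6 liver libraries the leading genes included Rap1gap, Clstn3, Mylk and Nat8f5 (0.97 to 0.98), and without CON16L their r was 0.96 to 0.98. Over the 6 eWAT libraries they were Scd2, Ppfia4, Ap3m1, Sec22b and Hspa4 (0.99 to 1.00), and Scd2, a fatty acid desaturase, ranged from 11.7 to 178 FPKM among the HSD libraries. HS3W stands apart among these libraries, and without it the r of these 5 genes was again 0.99 to 1.00, over 5 libraries. In muscle they were Plat, Mfsd7a, Tmem109, Efr3b and Adgrl2 (0.99 to 1.00). These values are given as a description.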

How the data were processed

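Per the labels and methods, the authors trimmed paired-end reads (cutadapt) and aligned them with HISAT2 to the mm10 genome. The methods name cuffdiff with an Ensembl annotation of unstated release as the source of the FPKM. The submitters' processing notes also list HTSeq 0.9.1 and mm9, and a batch-effect correction is mentioned without its values. The FPKM were used as deposited. With GENCODE M21 exon lengths, 97.5% of the 18822 genes above 0 came out as whole fragments (tolerance 0.05), which gave library totals. Reads that a near-identical gene shares, as Idi1 and its neighbour Idi2 may, cannot be separated.

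Each tissue was fitted by limma 3.58.1 (R 4.3.3, eBayes with trend) on log2(FPKM + 0.5), which understates the change of low genes, keeping genes whose mean FPKM was 0.5 or more. A call needed an adjusted p (Benjamini-Hochberg, all genes tested) under 0.05 and a log2 fold change of 1 or more in either direction. Intervals of counts are exact Poisson, 95%. Scripts were tested on simulated data. For deviations from the group mean, the 3 same-numbered pairs gave r of 0.18 to 0.38 in muscle. They gave -0.47 to 0.40 in liver and -0.20 to 0.41 in eWAT. Among differently numbered muscle pairs, CON72M and HS3M also reached 0.18, so a pairing was not established in any tissue.

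The genes and lists were chosen with earlier results of these data known. The text names the 6 genes, the 3 genes of each pathway list with the smallest p in each tissue and any called, and the 5 genes most like the 6. Differences of diet effects are named at an unadjusted p under 0.05. Of the genes this rule picks, 4 are not reported here. Alternatives were other pseudocounts, filters and scalings, voom on recovered fragments, a replicate block, the study's 15 listed libraries, and each library left out.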

Additional observations from a re-analysis of the deposited data

How the results depend on the processing

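The side of the threshold did not change for any of the 6 genes in the diet comparison of a tissue, with 89 alternative values in liver, 90 in eWAT and 82 in muscle. Direction was also kept for all in liver and muscle, and for 83 of 90 in eWAT. The study's listed eWAT libraries lack only HS5W, so that fit is the same as the one without HS5W, and the 90 values count it under both names. In eWAT, Sqle gave 0.00 (0.0041) with a pseudocount of 1 and 0.40 over the study's listed libraries, and ran from -0.71 to 0.40 when single libraries were left out. Lss ran from -0.25, without HS3W, to 0.32. In CON mice the Sqle difference of liver from eWAT was 1.12 under median-ratio scaling, where it was called, and 0.35 with mitochondrially encoded genes left out, and the Mvd difference of eWAT from muscle was -0.13 under median-ratio scaling. The cause was not tested.

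The number of genes called over the whole table moved more. In liver it was 35 over the study's listed libraries against 0, and 0 to 1 when single libraries were left out. In eWAT it was 0 to 160, the highest without HS3W. In muscle it was 35, 7 with no filter on low FPKM, 66 by voom on recovered fragments, and 10 (without CON72M) to 61 (without HS2M) when single libraries were left out. With the replicate block it was 54 in muscle, and the block changed no call of the 6 genes in a diet comparison. When single libraries were left out, 0 to 1 of the 18 differences of diet effects was called, the 1 being Dhcr7 without HS5L. Sqle and Lss in muscle and Idi1 in liver have no value with a mean FPKM of at least 1. Low counts limit Idi1 in liver and Sqle and Lss in muscle.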
